A study of Mus musculus with 2 samples.

Results

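The amino acid response is a transcription programme that mammalian cells switch on when amino acids run short or protein folding in the endoplasmic reticulum is disturbed. Kinases that sense these conditions phosphorylate the translation factor eIF2, which slows protein synthesis in general but favours translation of the transcription factor ATF4. ATF4 pairs with C/EBP proteins on a DNA element called CARE and raises transcription of genes for amino acid synthesis, amino acid uptake and the charging of tRNA, along with regulators such as Ddit3 and Trib3 that shape or end the response. A list of 39 such genes was described here in a pair of mouse osteosarcoma cell lines. It was sorted by role into 7 regulators and stress effectors, 7 enzymes of serine and one-carbon metabolism, 6 other amino acid enzymes, 7 amino acid transporters and 12 cytosolic tRNA synthetases.

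Members were found as probe sets whose only gene symbol in the array annotation was a listed gene under its current or former name. This gave 86 probe sets of 38 genes, out of 18193 genes with a probe set, and the RNA level of Pycr1 was not analysed here. All 38 were measured and lay above the background floor in both lines on the probe set used, against 11830 measured genes in all. Each line was hybridised to 1 array. Dunn is the parental line, labelled non-metastatic, and LM8 is a subline of it labelled highly metastatic; neither carries a further treatment or a stated genetic change. Both were grown in Eagle's minimum essential medium with 10% serum, glutamine and 1% non-essential amino acids, and RNA abundance was read on the Affymetrix Mouse430_2 array from 10 µg of total RNA. With 1 array per line the precision is limited by the number of arrays, so no p-value is given and nothing below was checked in a replicate.

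Signals are the authors' linear MAS5 intensities. A difference is log2 of the LM8 signal over the Dunn signal, taken on the brightest measured probe set of a gene unless stated, and a gene was counted as different if its signals were at least 2-fold apart. The spread between probe sets of a gene, with a median SD of 0.30 in log2 ratio over 5521 genes, was the only spread at hand. It mixes technical differences with differences between transcript forms and is not replicate error. The median log2 ratio of all measured genes was -0.08, and other scalings moved it to 0.07 (arrays centred on their medians) or 0.16 (bacterial hybridisation controls), so small differences have no settled sign. Of 10 osteoblast markers 8 were measured, led by Col1a2 (8785 in Dunn and 7350 in LM8), with summed signals of 19919 and 20029. Of these Omd was 5.01-fold higher in LM8, while Ibsp was 2.48-fold and Pth1r 2.26-fold lower. Of 11 macrophage and leukocyte markers 7 were measured, with summed signals of 976 and 485, of which Fcer1g gave 716 and 387. Of the 7, 4 counted as measured through Dunn alone, with LM8 below its floor, so the sums favour Dunn by the choice of genes. Ptprc, Itgam, C1qa and C1qb were below the floor in both lines. Only 2 of 6 endothelial and 2 of 6 epithelial markers were measured. The part of these other cell types in the differences below was not tested.

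The CARE element is shown first, because ATF4 acts through it. Promoter windows from RefSeq (mouse assembly GRCm38.p6), reaching from 250 bases before to 50 bases after an annotated start site, were at hand for 31 of the 39 members. For some members this site lay well inside the gene. For Mthfd2 it was at 83317604, with the outer end of the gene at 83326011, and for Slc3a2 at 8713897 against 8723369. The sites used for Aars1 and Eprs1 also lay inside the gene. The CARE core TGATGNAA, where N is any base, was searched on both strands. It was present in 12 of these 31 genes (38.7%), against 4.51% of the 27025 genes with a window and 3.97% of all 32851 windows. The list was drawn from genes of the ATF4 response, so this share reflects how members were chosen and is no test. A match says only that the letters are there. A missing match says only that they are absent from the window, and sequence outside it was not searched. A match in each of the 12 genes is printed with 11 bases on each side, each on the strand that reads TGATG, with the core in capitals and everything else in lower case.
Nupr1, chr7:126625562-126625591, + strand: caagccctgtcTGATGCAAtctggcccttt
Trib3, chr2:152344028-152344057, + strand: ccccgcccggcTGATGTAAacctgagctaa
Chac1, chr2:119351038-119351067, - strand: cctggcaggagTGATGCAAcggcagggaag
Vldlr, chr19:27216809-27216838, - strand: gctaggagcgcTGATGCAActattgctgct
Asns, chr6:7693214-7693243, - strand: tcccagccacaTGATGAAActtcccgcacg
Pycr1, chr11:120643833-120643862, - strand: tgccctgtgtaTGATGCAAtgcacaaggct
Slc1a4, chr11:20332699-20332728, + strand: caggctggagaTGATGCAAcgcaggaggca
Aars1, chr8:111033840-111033869, - strand: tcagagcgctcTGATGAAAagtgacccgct
Gars1, chr6:55037960-55037989, - strand: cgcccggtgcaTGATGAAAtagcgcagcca
Iars1, chr13:49682126-49682155, - strand: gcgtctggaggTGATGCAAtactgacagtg
Tars1, chr15:11399655-11399684, + strand: agctaaccagcTGATGCAAcgggactcctg
Yars1, chr4:129189895-129189924, + strand: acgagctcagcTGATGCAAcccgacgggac

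Of the 12 matches shown, 8 had the core TGATGCAA, 3 (Aars1, Asns and Gars1) had TGATGAAA and 1 (Trib3) had TGATGTAA. Genes with a match were spread unevenly over the roles. They were 4 of 7 regulators and effectors, 5 of 8 synthetases, 2 of 5 other amino acid enzymes and 1 of 4 transporters with a window, but none of the 7 serine and one-carbon enzymes. The endoplasmic reticulum stress element ERSE, searched the same way, was in none of the members' windows and in those of 0.137% of all genes. Members without a window were Cth, Slc1a5, Slc7a3, Slc7a5, Cars1, Lars1, Nars1 and Wars1.

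Of the members at least 2-fold apart, Nupr1 and Trib3 had a CARE match. The 250 bases before the start site of each are printed in the direction of transcription. In Nupr1 the capitals mark the CARE core on the opposite strand, 110 to 103 bases before the start. In Trib3 the match lies 15 to 22 bases after the start, so the stretch before it has no capitals.
Nupr1, chr7:126625471-126625720, - strand: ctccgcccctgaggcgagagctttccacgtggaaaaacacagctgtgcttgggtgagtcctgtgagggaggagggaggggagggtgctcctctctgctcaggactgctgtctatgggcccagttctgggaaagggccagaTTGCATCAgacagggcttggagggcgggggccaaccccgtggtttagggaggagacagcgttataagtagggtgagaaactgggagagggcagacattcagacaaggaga
Trib3, chr2:152344061-152344310, - strand: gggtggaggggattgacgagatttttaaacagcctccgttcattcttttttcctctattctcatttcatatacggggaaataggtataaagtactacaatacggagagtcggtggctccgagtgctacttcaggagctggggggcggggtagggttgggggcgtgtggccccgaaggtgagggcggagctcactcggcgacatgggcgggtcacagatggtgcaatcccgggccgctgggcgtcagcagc

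The list did not move in 1 direction between the lines, but its roles differed. Psph and Cth, 2 of the 38, passed 2-fold on the LM8 side (5.26%), and Nupr1, Ddit3 and Trib3 passed it on the Dunn side (7.89%), with 33 between. Among all measured genes 6.51% were at least 2-fold higher and 8.84% at least 2-fold lower, so the members' counts were near the background in both directions. The median log2 ratio of the members was -0.05, close to the -0.08 of all genes, with an SD of 0.64 between members against 0.78 between all genes. Of the members, 26 lay within 0.5 of zero in log2 ratio, or 68.4%, whereas 57.7% of all measured genes did. Most members are brightly expressed: 37 had a mean signal of at least 100, and among the 6449 genes that bright 6.00% were at least 2-fold higher in LM8, 6.47% lower and 12.5% apart in either direction. Over all measured genes, 15.4% were apart in either direction. Of the 6449 bright genes, 61.3% lay within 0.5 of zero, with an SD of 0.74, nearer to the members than all measured genes were.

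**Figure D1:**
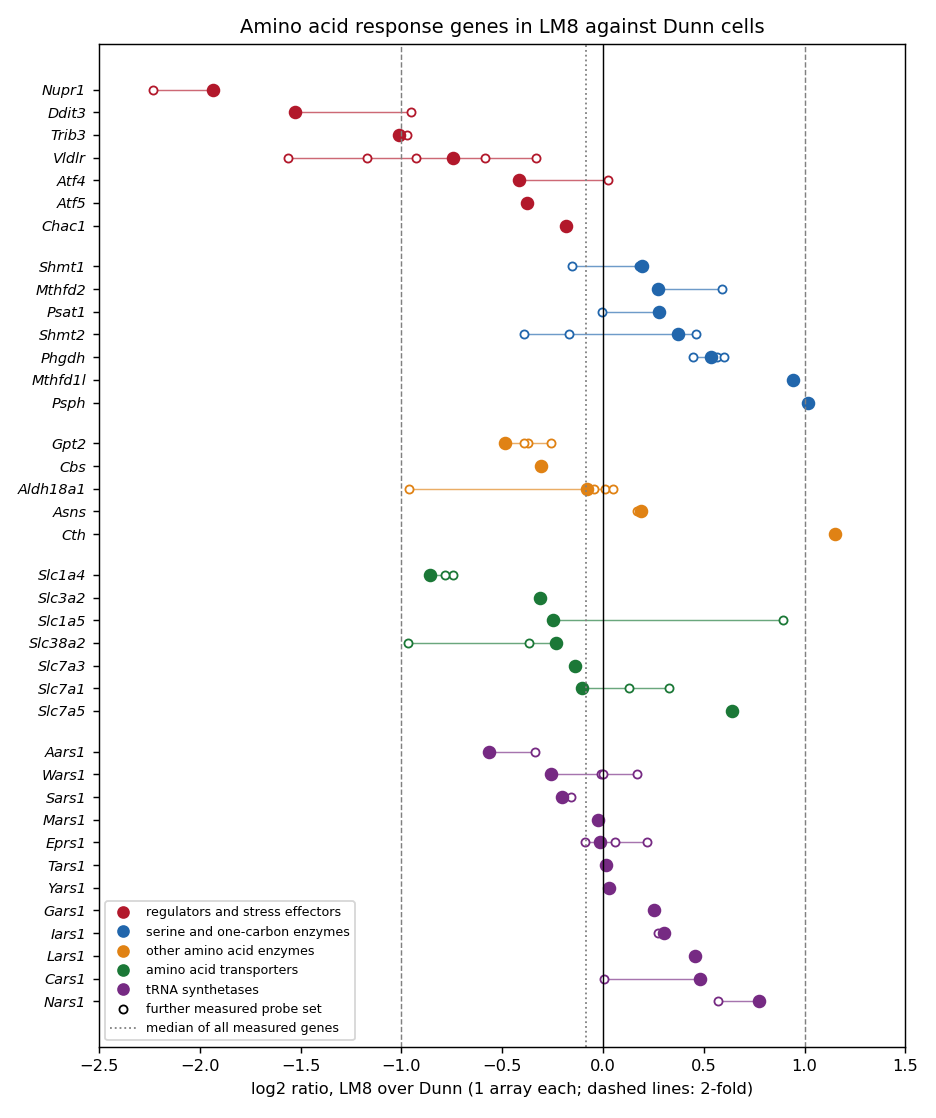
Log2 ratio of LM8 over Dunn (horizontal axis) for each of the 38 measured members, by role; filled points are the brightest probe set, open points the further measured probe sets, and the thin line their range. All 7 regulators and effectors lie below zero and all 7 serine and one-carbon enzymes above it on the brightest probe set, with the synthetases on both sides, from -0.56 to 0.77.

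The transcription regulators and stress effectors were the lowest of the 5 roles. All 7 had a log2 ratio below zero, against 55.3% of all measured genes, with a median of -0.75. Of these 3 were at least 2-fold lower in LM8, against 8.84% of all measured genes. The roles were set with earlier results of these data known, so counts by role describe the grouping and test nothing. Nupr1, a small stress-induced chromatin-associated protein, had a signal of 1631 in Dunn and 427 in LM8, a 3.82-fold lower level. Its other probe set read 1268 and 270, or 4.70-fold lower, so both placed LM8 well below Dunn. Nupr1 was the only member at least 2-fold lower under all 13 alternative settings.

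Ddit3 encodes CHOP, a C/EBP-family factor that acts downstream of ATF4 in prolonged stress. Its signal was 1314 in Dunn and 456 in LM8, which is 2.88-fold lower. The dimmer probe set read 48.8 and 25.2, a log2 ratio of -0.95, in the same direction but just short of 2-fold. Trib3, a pseudokinase that ATF4 and CHOP induce and that restrains ATF4, read 1857 and 920. This is 2.02-fold lower, at the edge of the 2-fold rule, and its other probe set lay just inside 2-fold with signals of 1558 and 793 (log2 ratio -0.97).

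ATF4 itself is controlled mainly through translation, so its transcript level is only a part of its activity. The brightest Atf4 probe set read 4505 in Dunn and 3373 in LM8, a log2 ratio of -0.42, but the other measured one read 1403 and 1427 (0.02). Atf4 RNA therefore showed no direction shared by its probe sets. Atf5, a related factor that is also translated under eIF2 phosphorylation, read 1763 and 1359 (log2 ratio -0.37). Chac1, which breaks down glutathione and is a sensitive target of ATF4, read 434 and 383 (-0.18), the smallest difference of the group, and turned to 0.06 with scaling on the hybridisation controls. Vldlr, a lipoprotein receptor that stress can induce, read 2066 and 1232 (-0.75). All 6 of its probe sets were lower in LM8, from -0.33 to -1.56.

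The enzymes that make serine and feed carbon from it into the folate cycle went the other way. All 7 had a log2 ratio above zero on the brightest probe set, against 44.7% of all measured genes, with a median of 0.37, and 1 reached 2-fold. Both medians, of this group and of the regulators, kept their sign under all 13 alternative settings, but several of these could not have changed it. No test of the difference between the groups was possible with 1 array per line.

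Phgdh catalyses the committed step of serine synthesis from a glycolytic intermediate. It read 2366 in Dunn and 3424 in LM8, a log2 ratio of 0.53, and its 4 probe sets agreed closely, from 0.45 to 0.60. Psat1, the transaminase of the next step, read 2768 and 3352 (0.28), but its other probe set was level at 1807 and 1804. Psph, the phosphatase that releases serine, read 1035 and 2098, or 2.03-fold higher in LM8. It has 1 probe set, so nothing on the array repeats that value. Of the 3 enzymes of the serine route, only Psph passed 2-fold.

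Shmt2, the mitochondrial enzyme that splits serine to glycine and a carbon unit, read 1363 and 1762 (log2 ratio 0.37). Its 4 probe sets did not agree, and the 2 dimmest ones gave -0.39 and -0.17. Shmt1, the cytosolic form, read 182 and 208 (0.20) and ranged from -0.15 to 0.20 over 4 probe sets. Mthfd2, a mitochondrial folate dehydrogenase, read 1148 and 1387 (0.27) on one probe set and 953 and 1432 (0.59) on the other. Mthfd1l, the mitochondrial formate-producing synthetase, read 456 and 877, a log2 ratio of 0.94 that lay just under 2-fold, and passed it in 2 of the 13 alternative settings. None of these 4 genes passed 2-fold on its brightest probe set.

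Among the other amino acid enzymes only Cth stood apart. Cth, the enzyme of transsulfuration that makes cysteine from cystathionine, read 791 in Dunn and 1755 in LM8 and was 2.22-fold higher on its 1 probe set, the highest log2 ratio of any member (1.15). Cbs, the step before it, was dim in both lines at 28.3 and 22.9, near the floors of 21.1 and 18.96, so its ratio of -0.31 carries little weight. Asns, which makes asparagine and is a classic ATF4 target with the CARE printed above, read 3546 and 4036 (0.19), and 2627 and 2951 (0.17) on the other probe set. Aldh18a1, which starts proline synthesis, read 1824 and 1727 (-0.08); 4 of its 5 probe sets lay within 0.08 of zero and the dimmest gave -0.96. Gpt2, a mitochondrial alanine transaminase, read 653 and 466 (-0.49) and was lower on all 4 probe sets, the least by -0.26.

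Amino acid transporters were mostly a little lower in LM8, with 6 of 7 below zero and a median of -0.23, which became 0.01 with scaling on the hybridisation controls. None was 2-fold apart. Slc1a4, a carrier of alanine, serine and cysteine, read 444 in Dunn and 245 in LM8 (-0.86), and its 3 probe sets agreed, from -0.86 to -0.75. Slc7a5, the catalytic chain of the LAT1 exchanger of large neutral amino acids, went the other way with 1259 and 1963 (0.64). Its partner chain Slc3a2 read 2553 and 2054 (-0.31). The chains of this heterodimer thus had ratios of opposite sign, each on 1 probe set.

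The remaining transporters lay nearer to zero. Slc1a5, a glutamine carrier, read 201 and 169 (-0.25) on its brightest probe set and 24.3 and 45.2 (0.89) on a dim one, so its direction is not settled. Slc38a2, an amino acid carrier induced by starvation, read 2571 and 2188 (-0.23) and was lower on all 3 probe sets. The cationic amino acid carrier Slc7a1 read 3259 and 3037 (-0.10), with 0.33 and 0.13 on its other probe sets. Slc7a3, a related carrier, read 701 and 636 (-0.14).

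The 12 cytosolic tRNA synthetases, which attach amino acids to their tRNAs, showed no common direction. None was 2-fold apart, 7 lay above zero and 5 below, and the median of 0.02 became -0.01 with quantile normalization. The asparagine enzyme Nars1 was furthest up, at 1497 in Dunn and 2560 in LM8 (log2 ratio 0.77), with 0.57 on its other probe set. The cysteine enzyme Cars1 read 479 and 668 (0.48), the leucine enzyme Lars1 1226 and 1684 (0.46), the isoleucine enzyme Iars1 968 and 1194 (0.30) and the glycine enzyme Gars1 1840 and 2190 (0.25). Nars1 and Iars1 were higher on both of their probe sets, whereas the second probe set of Cars1 was level near the floor (23.2 and 23.4).

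On the low side, the alanine enzyme Aars1 read 957 and 648 (-0.56), with -0.34 on its other probe set. The tryptophan enzyme Wars1 read 526 and 440 (-0.26), while its other 3 probe sets lay between -0.01 and 0.17. The serine enzyme Sars1 read 2511 and 2179 (-0.20). The methionine enzyme Mars1 (1311 and 1290), the threonine enzyme Tars1 (1186 and 1199), the tyrosine enzyme Yars1 (485 and 495) and Eprs1, which charges both glutamate and proline tRNAs (1132 and 1121), all lay within 0.03 of zero. These 4 levels were nearly equal in the lines on the brightest probe set.

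**Figure D2:**
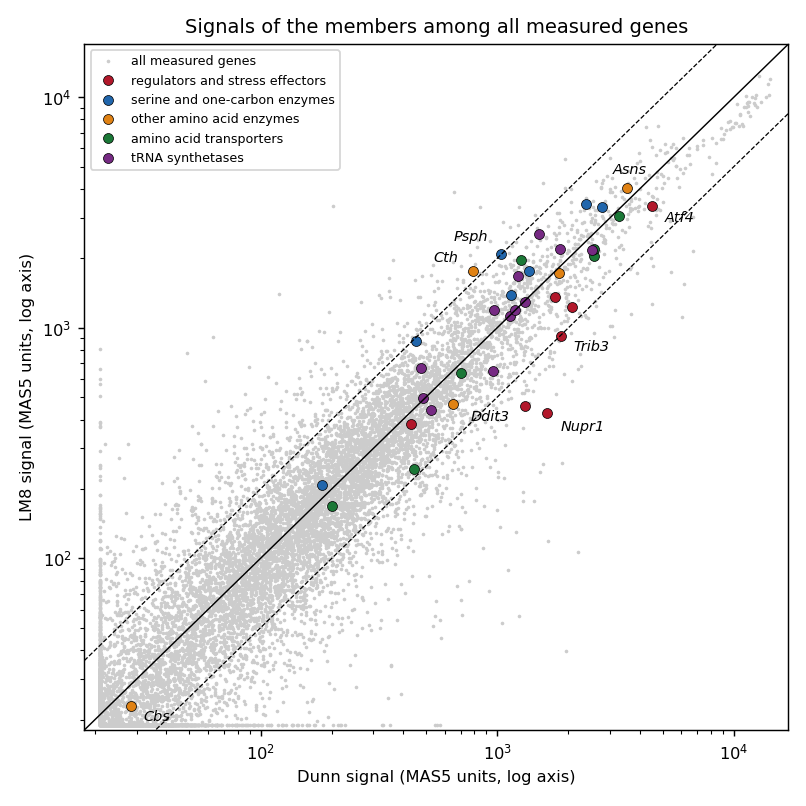
Signal in Dunn (horizontal axis) against signal in LM8 (vertical axis), both log axes in MAS5 units; grey points are the 11830 measured genes, coloured points the members by role, the solid line marks equal signals and dashed lines a 2-fold difference. Nupr1 and Ddit3 lie clearly below the lower dashed line, Trib3 on it, and Psph and Cth on or just above the upper one.

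Members with and without a CARE match overlapped in their ratios. The 11 measured members with a match had a median log2 ratio of -0.18, with 6 below zero and 5 above. The 19 with a window and no match had a median of -0.08, with 12 below zero and 7 above. With a match, ratios ran from -1.93 for Nupr1 to 0.30 for Iars1. Tars1 and Yars1 were nearly level at 0.02 and 0.03. Ddit3, at -1.53, had no match in its window. Over all measured genes with a window, 2.66% had a match, as did 2.23% of those at least 2-fold lower in LM8 and 3.94% of those at least 2-fold higher.

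**Figure D3:**
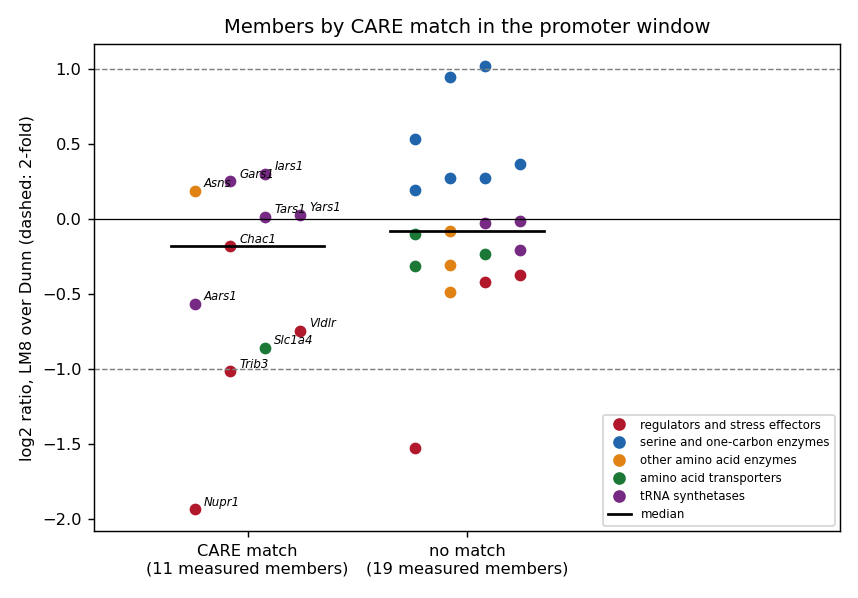
Log2 ratio of LM8 over Dunn (vertical axis) for measured members with and without the CARE core in their RefSeq promoter window, coloured by role, with a bar at each median and dashed lines at 2-fold. The ranges overlap, and the medians are -0.18 and -0.08.

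Upstream of ATF4, of 8 measured genes of the eIF2 kinases, the phosphatase subunits and the partners of GCN2, none was 2-fold higher and 1 was lower, near the 6.51% and 8.84% of all measured genes, with a median of -0.10. Eif2ak3 (PERK), the kinase of the endoplasmic reticulum, read 154 in Dunn and 152 in LM8. Eif2ak4 (GCN2), which senses uncharged tRNA, read 87.0 and 76.6 (-0.18), with 0.40 on its other probe set. Eif2ak2 (PKR), the kinase that senses double-stranded RNA, read 58.2 and 103 (0.82) and was higher in LM8 on all 3 probe sets. The lower gene was Ppp1r15a (GADD34), the stress-induced phosphatase subunit that reverses eIF2 phosphorylation, at 558 and 227, or 2.46-fold lower on its 1 probe set. Its constitutive relative Ppp1r15b read 634 and 423 (-0.58).

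Beyond the members, 16 further partners and targets of ATF4 were measured, with 1 at least 2-fold higher, 2 lower and a median of -0.30; over all measured genes these shares were 6.51% and 8.84%, so the counts were near the background. Gadd45a, a growth arrest gene that ATF4 and the DNA damage response both induce, read 758 and 79.4 and was 9.55-fold lower in LM8 on its 1 probe set. Gtpbp2, a GTPase linked to ribosome rescue, read 429 and 121, or 3.55-fold lower, and all 4 of its probe sets were at least 2-fold lower. The cystine carrier gene Slc7a11 was the higher one, at 24.5 and 85.2, but its other probe set was level at 28.0 and 29.8. Among the rest, the C/EBP factor gene Cebpb read 1979 and 1068 (-0.89), with -1.14 on its other probe set. The ATF factor gene Atf3 read 123 and 72.2 (-0.77), and the related Jdp2 711 and 372 (-0.93). Cebpg, another C/EBP factor gene, lay on the other side on all 3 of its probe sets, from 0.10 to 0.82. None of these 4 transcription factor genes was 2-fold apart on its brightest probe set. Of the 16 genes of this list with a window, 5 held the CARE core (Atf3, Fgf21, Herpud1, Slc7a11 and Jdp2), and their ratios ran from -0.93 to 1.80.

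Of 9 measured further enzymes of serine, glycine and folate metabolism, 2 passed 2-fold on the LM8 side, against 6.51% of all measured genes. None passed it on the Dunn side, against 8.84% of all measured genes, and 7 lay between. The median of the 9 enzymes was 0.60. Of the 9, 7 were above zero, against 44.7% of all measured genes, and Slc25a32 (-0.65) and Fpgs (-0.14) were below zero. Tyms, which makes thymidylate, read 52.4 in LM8 with Dunn below its floor at 13.3, a difference of at least 2.49-fold. Tyms counted as measured through LM8 alone and so could not have come out 2-fold lower. The counts and the median of this list include it. Only 2 of its 4 probe sets were measured. The dimmer of these read 12.6 and 33.3, again with Dunn below its floor. Its log2 ratio of at least 0.66 fell short of the 2-fold rule. Mtr, methionine synthase, was 2.27-fold higher at 52.9 and 120. The 10 measured cytosolic synthetases and complex partners outside the member list had a median of 0.33, with none 2-fold apart and 8 above zero. Of these the arginine enzyme Rars1 (735 and 1428, 0.96) and the glutamine enzyme Qars1 (804 and 474, -0.76) were furthest from zero, and the 4 probe sets of Qars1 ranged up to 0.14. None of the windows of this list held a CARE core, against 5 of 8 among the member synthetases, which were chosen as genes of this response.

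Mitochondrial synthetases had a median of 0.16 over 16 genes, of which Aars2 was at least 2.90-fold higher in LM8, with Dunn below its floor (10.6 against 61.0). Aars2 too counted as measured through LM8 alone and could not have come out 2-fold lower. No other gene of this list was 2-fold apart, against 15.4% of all measured genes. Other amino acid enzymes, 15 measured, had a median of -0.08 with none 2-fold apart. The arginine pathway gene Asl (137 and 73.9, -0.89) and the branched-chain transaminase gene Bcat2 (216 and 121, -0.83) were furthest from zero. Of 17 other measured amino acid transporters, 2 were at least 2-fold higher, against 6.51% of all measured genes. None was 2-fold lower, against 8.84% of all measured genes. The higher ones were Slc7a11 and Slc43a1, a carrier of large neutral amino acids. Both were dim in Dunn, and Slc7a11 at 24.5 was near the Dunn floor of 21.1. Slc43a1 read 32.5 and 68.0, and the median of the 17 was -0.12.

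**Figure D4:**
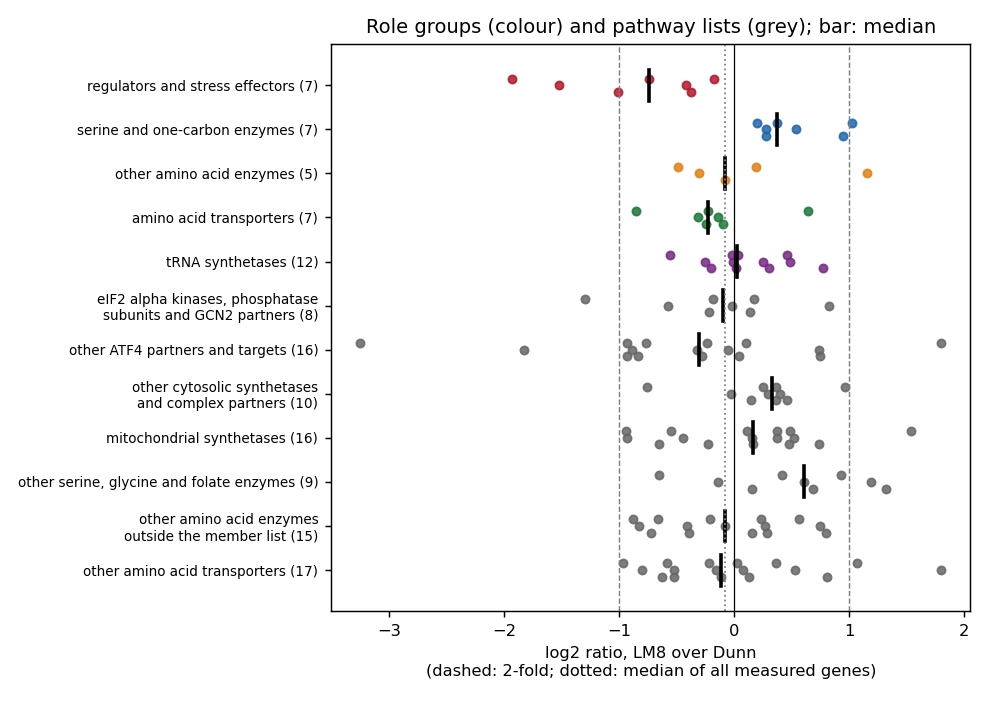
Log2 ratio of LM8 over Dunn (horizontal axis) for each measured gene of the 5 roles (coloured) and of 7 further pathway lists (grey), with the number measured in brackets and a bar at each median. The regulators have the lowest median (-0.75) and the further serine, glycine and folate enzymes the highest (0.60), with the synthetase lists between.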

How the data were processed

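RNA of 2 mouse osteosarcoma lines was compared on 1 array each. The deposited values are linear probe set intensities. The authors made them with MAS5, as the submitters' processing notes say, and its version and settings are not given in the sources used here. Arrays were scaled over 45037 non-control probe sets to equal 2% trimmed means (factors of 1.00). Signals below the array median (21.1 in Dunn, 18.96 in LM8) were raised to it, and probe sets above this floor on either array counted as measured. Detection calls were not used. Names came from the platform annotation, updated by gene identifier (99.4% of 34958 probe sets with 1 symbol matched). A gene took its brightest measured probe set. No test was possible, so genes were counted past 2-fold. Named genes are all members and, per pathway list, every gene 2-fold apart or the 2 furthest from zero; Eif2ak2, Eif2ak3, Eif2ak4, Ppp1r15b, Cebpb, Cebpg, Atf3, Jdp2, Fgf21, Herpud1, Slc25a32, Fpgs, Omd, Ibsp and Pth1r were added after their values were seen. Members, lists and alternatives were chosen with earlier results of these data known. A further match to the motif is not reported here. The steps were tested on simulated data, with planted differences well past 2-fold in bright genes. Planted differences near 2-fold or near the floor were not covered. The software was matplotlib 3.10.9, statsmodels 0.14.6, scipy 1.17.1, pandas 2.3.3 and numpy 2.4.6 under Python 3.11.15.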

Additional observations from a re-analysis of the deposited data

How the results depend on the processing

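Results were recomputed under 13 other settings for scaling, floor, gene summary and probe sets used, of which the limit to genes with a mean signal of at least 100, and all settings for the CARE medians, were chosen after seeing the data, plus 2 other counting rules. The number of members at least 2-fold higher in LM8 was 0 with a 3-fold rule, 1 with quantile normalization (Psph, at a log2 ratio of 1.00, fell just short), 3 with arrays centred on their medians and 4 with scaling on the hybridisation controls. The number at least 2-fold lower was 1 with a 3-fold rule, 1 when all probe sets of a gene had to be 2-fold lower and 1 with the second brightest probe set; in each case this was Nupr1. It was 2 with arrays centred on their medians, with scaling on the hybridisation controls and with the mean over probe sets, where Trib3 was no longer 2-fold apart. All 104 medians differed from the main value by less than the probe set spread of 0.30, as did 483 of 490 values of single members. Centring on medians and scaling on the hybridisation controls (mean log2 ratio -0.24) shift all members alike by less than this. These settings could therefore not fail that bar. The other floors, no floor, and leaving out genes at the floor or dim genes returned the main value for every member kept. Every member lay above the floor on the probe set used, so these settings add nothing on single members. A median within the bar of 0.30 could still change sign. With the hybridisation controls the median of the members went from -0.05 to 0.19, and that with a CARE match from -0.18 to 0.06. None of the 2-fold members changed sign. Of the 38 members, 24 kept their sign in all settings. No paired analysis was possible because each line has 1 array. Signals near the floor limit what can be said of Cbs and of the dim probe sets.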

Other observations

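The 3 probe sets that name a member together with another gene were left out of the results. Phgdh shared a pair of these with predicted genes, a different one each. They read 1156 in Dunn and 1836 in LM8 (log2 ratio 0.67) and 734 and 976 (0.41), on the same side as the 4 probe sets of Phgdh alone. The probe set shared by Aars1 and Exosc6, an exosome subunit gene, read 149 and 86.2 (-0.79).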
